A study of Mus musculus with 27 samples.

Results

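Foxd3, Otx2, Pou3f1, Gbx2 and Fgf5 are formative and primed pluripotency genes, which embryonic stem cells raise as they leave the naive state. They were taken as a list of symbols and matched to Ensembl IDs with GENCODE M21, which gave 5 of the 53801 genes counted, and all 5 passed the filter on low counts. The series measured RNA in TX1072 cells, mouse embryonic stem cells (mESC) of BL/6J x CAST-EiJ hybrid origin, in 27 libraries. Every group carried SPEN-AID, that is SPEN, a repressor protein that acts in Xist silencing, fused to an auxin-inducible degron, together with an Xist gene that doxycycline switches on. Every group also grew in medium with serum, LIF and 2i, the MEK inhibitor PD0325901 and the GSK3 inhibitor CHIR99021. The SPOC line held BglG-GFP-SPOC and the GFP line held BglG-GFP. BglG is a bacterial RNA-binding protein that tethers its fusion partner, and SPOC is the domain at the C-terminal end of SPEN. Dox+Auxin cells had auxin for 12 h, to deplete SPEN, and then 1 ug/mL doxycycline together with auxin for 24 h. Dox cells had 1 ug/mL doxycycline for 24 h, and untreated cells had neither agent. There were 5 libraries each of SPOC Dox+Auxin, SPOC Dox and SPOC untreated cells, and 4 each of GFP Dox+Auxin, GFP Dox and GFP untreated cells.

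The design limits what each contrast holds. With 1 line for each construct, SPOC and any further line difference cannot be told apart. No group had auxin without SPEN-AID and none had doxycycline without inducible Xist. These agents therefore cannot be told apart from SPEN depletion and from Xist induction. There was also no group with auxin alone, so whether a change with auxin depends on doxycycline or Xist cannot be told. In bulk RNA, fewer cells of a kind and less RNA per cell cannot be told apart.

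Total counts ranged from 28936459 to 45489094 per library. Levels are TMM-normalised CPM, and a gene is called when its adjusted p is under 0.05 in edgeR's quasi-likelihood test over 18363 genes. Spen RNA was 1052 ± 114, 353 ± 15.0 and 343 ± 11.4 CPM in SPOC Dox+Auxin, Dox and untreated cells (SD, n = 5), and 860 ± 223, 197 ± 15.4 and 174 ± 12.1 CPM in the matching GFP groups (SD, n = 4). SPEN protein was not measured, and whether reads of BglG-GFP-SPOC were counted as Spen in SPOC cells was not tested. Xist was between 289.5 and 918 CPM in the libraries given doxycycline and between 1.03 and 7.82 CPM in untreated libraries, except the library labelled SPOC untreated replicate 2, which held 178 CPM. SPOC Dox+Auxin replicates 1 and 2 were closer to each other (chi-square per gene 1.68) than any other pair of their group (6.06 to 12.0). They were also closer than any pair within the other groups (2.58 to 13.3). Values of the 5 genes that rest on these 3 libraries are given with and without them, and counts for other lists under Dox+Auxin against Dox also without SPOC Dox+Auxin replicates 1 and 2 where these differ.

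Naive stem cells kept in 2i and LIF resemble the cells of the early epiblast. On the way to the formative and then the primed state they lower naive factors and raise Otx2, Pou3f1 and Fgf5, in part through FGF and ERK signalling, which the MEK inhibitor of 2i blocks. Foxd3 and Otx2 take part in rearranging enhancers during this exit. Gbx2 is an exception in the list, because it also belongs to the targets of LIF and STAT3 that support self-renewal in mouse embryonic stem cells.

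Divided by the length of its annotated exons, Foxd3 averaged 7.71 to 26.7 CPM per kb over the 6 group means, Otx2 3.01 to 8.18, Pou3f1 4.77 to 9.23, Gbx2 4.41 to 6.87 and Fgf5 0.347 to 0.510 CPM per kb. On the same scale Nanog averaged 401 to 441 and Pou5f1 390 to 478 CPM per kb. Foxd3 was the member with the highest level per kb in all 6 groups, and Fgf5, with 24 to 57 counts per library, was the lowest. The markers of the labelled cell type were present, as Pou5f1, Nanog, Sox2, Zfp42 and Esrrb each had at least 289 CPM in every library.

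The stretch around the gene start is shown for Foxd3, Otx2 and Gbx2, because their levels were correlated, positively or negatively, among libraries of one group. RefSeq windows on GRCm38.p6 reach from 250 bases before to 50 bases after a start, and 4 of the 5 genes had one. Foxd3 lies at chr4:99656299-99658622 on the plus strand as a single exon, and its window is chr4:99656049-99656348. Otx2 lies at chr14:48657677-48673819 on the minus strand, and of its 4 windows the one at chr14:48665060-48665359 is shown, which holds an OTX motif. Gbx2 lies at chr1:89927956-89931179 on the minus strand, and its window is chr1:89931127-89931426. Capitals mark a match to GCGTG, the core that the aryl hydrocarbon receptor binds, or to TAATCC, the core of OTX proteins, read on either strand.
Foxd3: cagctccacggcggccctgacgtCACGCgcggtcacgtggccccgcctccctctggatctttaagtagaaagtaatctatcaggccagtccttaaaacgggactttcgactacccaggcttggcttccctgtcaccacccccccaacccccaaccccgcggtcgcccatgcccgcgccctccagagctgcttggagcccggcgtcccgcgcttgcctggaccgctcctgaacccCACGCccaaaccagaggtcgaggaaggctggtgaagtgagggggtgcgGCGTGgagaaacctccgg
Otx2: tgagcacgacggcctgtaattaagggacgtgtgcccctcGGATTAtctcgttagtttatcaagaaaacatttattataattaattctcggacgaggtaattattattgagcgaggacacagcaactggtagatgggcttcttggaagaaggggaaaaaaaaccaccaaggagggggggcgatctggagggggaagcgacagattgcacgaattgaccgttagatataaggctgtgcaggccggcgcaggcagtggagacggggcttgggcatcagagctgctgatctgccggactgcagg
Gbx2: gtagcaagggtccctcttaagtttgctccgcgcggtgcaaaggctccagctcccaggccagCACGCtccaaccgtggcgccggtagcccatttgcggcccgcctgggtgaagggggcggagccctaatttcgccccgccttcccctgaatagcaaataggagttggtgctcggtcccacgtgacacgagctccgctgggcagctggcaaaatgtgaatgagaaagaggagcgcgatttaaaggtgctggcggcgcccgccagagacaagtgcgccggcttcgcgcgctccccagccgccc

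The Foxd3 window held GCGTG 3 times, with first bases at -227, -16 and 33 from the start. At least 3 matches stood in 3.91% of 32851 windows, and at least 1 stood in 32.4%. These shares are not matched for base content: G and C made up 65.7% of the Foxd3 window, against a median of 52.7% over all windows. The Gbx2 window held it once, at -189, as did the Fgf5 window (chr5:98253934-98254233, plus strand), at 5, and another Otx2 window, at -237. Of the 4 Otx2 windows only the one shown held TAATCC, once, at -211. Taken singly, 7.06% of all windows held it, a share that does not allow for a choice among 4. No match overlapped another. The other motifs searched had no match in any window of these genes: TGGGAA of RBPJ (25.6% of all windows), CTTTGAT and CTTTGAA of TCF and LEF factors (3.73% and 5.14%), CCGGAAG of ETS factors (8.86%), the POU octamer ATGCAAAT (1.74%) and TTCCNGGAA of STAT factors (1.15%).

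Foxd3 encodes a forkhead transcription factor that embryonic stem cells need for self-renewal and that acts as they enter the formative state. It had 31.1, 31.3, 44.0, 37.8 and 41.1 CPM in SPOC Dox+Auxin cells, 62.0, 56.6, 67.0, 63.7 and 61.3 CPM in SPOC Dox cells and 47.2, 57.3, 53.0, 46.0 and 50.8 CPM in SPOC untreated cells. It had 16.8, 16.9, 18.5 and 19.5 CPM in GFP Dox+Auxin cells, 59.2, 56.0, 58.2 and 61.1 CPM in GFP Dox cells and 47.1, 44.9, 47.1 and 49.9 CPM in GFP untreated cells. Dox+Auxin libraries were the lowest in both lines and overlapped neither of the other groups of their line. The GFP Dox+Auxin libraries all lay below every SPOC Dox+Auxin library. By mean, Foxd3 stood highest in both Dox groups, next in both untreated groups, then in SPOC Dox+Auxin and lowest in GFP Dox+Auxin cells. SPOC untreated replicate 2, at 57.3 CPM, overlapped both Dox groups, and no other untreated library did. The lines were not told apart by the test with Dox (log2 fold change 0.08, SE 0.08, edgeR adjusted p = 0.56) or untreated (0.11, SE 0.08, adjusted p = 0.42).

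**Figure D1:**
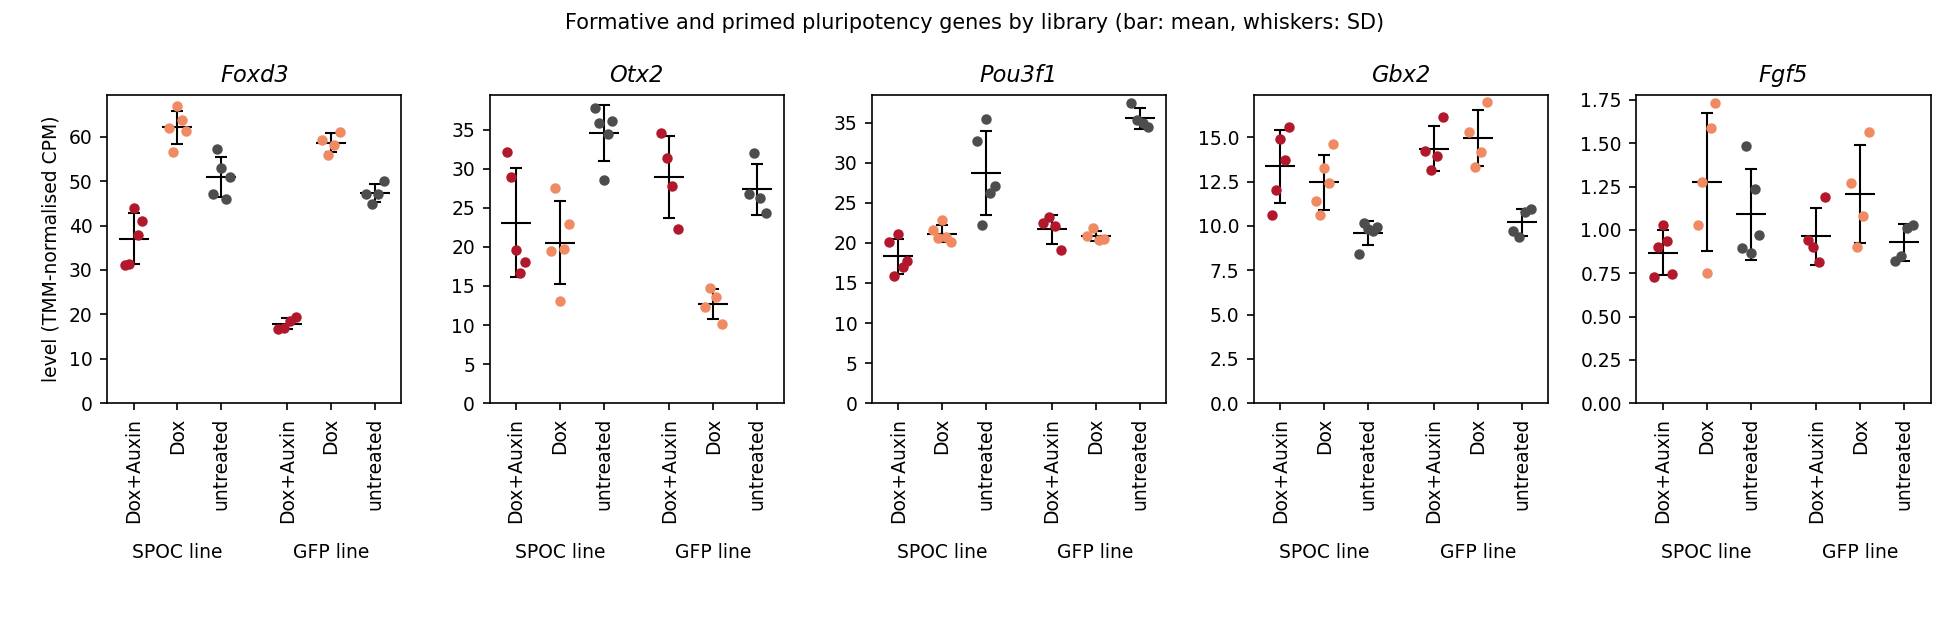
Level of each gene in every library (TMM-normalised CPM, vertical axis from 0, one panel a gene) in SPOC and GFP cells given Dox+Auxin, given Dox or left untreated. Points are libraries, bars are group means and whiskers are SD (n = 5 in SPOC groups, n = 4 in GFP groups); Foxd3 in GFP Dox+Auxin cells, 16.8 to 19.5 CPM, lies below all other Foxd3 values.

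Otx2, a homeobox factor that drives the exit from the naive state, was spread most widely in SPOC Dox+Auxin cells. In SPOC cells it had 32.2, 28.9, 19.5, 16.7 and 18.1 CPM with Dox+Auxin, 19.5, 27.6, 13.1, 19.7 and 22.9 CPM with Dox and 37.7, 35.9, 28.5, 34.5 and 36.1 CPM untreated. In GFP cells it had 34.5, 31.4, 27.7 and 22.3 CPM with Dox+Auxin, 12.3, 14.7, 13.6 and 10.2 CPM with Dox and 26.8, 31.98, 26.3 and 24.4 CPM untreated. The GFP Dox libraries were the lowest group and overlapped neither GFP Dox+Auxin nor GFP untreated libraries. Within SPOC Dox+Auxin, replicates 1 and 2 were high and the other 3 lay among the SPOC Dox libraries. By mean the order was SPOC untreated, GFP Dox+Auxin, GFP untreated, SPOC Dox+Auxin, SPOC Dox and GFP Dox, and each group overlapped the next one in this order.

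Pou3f1, also called Oct6, is a POU factor of the formative state and a member that is encoded by 1 exon (chr4:124656807-124660655, plus strand). SPOC libraries held 20.1, 15.8, 21.1, 17.0 and 17.8 CPM with Dox+Auxin, 21.6, 20.6, 22.8, 20.7 and 20.1 CPM with Dox and 32.7, 22.3, 35.5, 26.2 and 27.04 CPM untreated. GFP libraries held 22.4, 23.3, 22.1 and 19.1 CPM with Dox+Auxin, 20.9, 21.8, 20.3 and 20.4 CPM with Dox and 37.4, 35.3, 35.0 and 34.4 CPM untreated. Untreated cells of both lines were higher than all 4 treated groups, with the exception of SPOC untreated replicate 2, at 22.3 CPM the lowest untreated library and the one with Xist. Among treated groups the order was GFP Dox+Auxin, SPOC Dox, GFP Dox and SPOC Dox+Auxin, and each of these overlapped its neighbours.

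Gbx2, a homeobox factor, moved the other way. It had 10.6, 12.0, 14.9, 13.7 and 15.6 CPM in SPOC Dox+Auxin cells, 11.4, 10.6, 13.3, 12.4 and 14.6 CPM in SPOC Dox cells and 8.44, 10.1, 9.80, 9.69 and 9.93 CPM in SPOC untreated cells. It had 14.2, 13.2, 13.9 and 16.1 CPM in GFP Dox+Auxin cells, 15.3, 13.3, 14.2 and 17.0 CPM in GFP Dox cells and 9.74, 9.40, 10.8 and 10.9 CPM in GFP untreated cells. Untreated libraries were the lowest of their line and did not overlap treated ones. The order by mean was GFP Dox, GFP Dox+Auxin, SPOC Dox+Auxin, SPOC Dox, GFP untreated and SPOC untreated, and the 4 treated groups overlapped each other, as did the untreated groups. Gbx2 shares 946 exonic bases with D130058E05Rik on the opposite strand, which had 151 to 358 counts against 264 to 568 for Gbx2. D130058E05Rik also rose with Dox, by 0.32 log2 in SPOC cells (SE 0.10, edgeR adjusted p = 0.022) and 0.38 in GFP cells (SE 0.10, adjusted p = 0.0053). Between the lines it was lower in SPOC cells, at -0.31 untreated (SE 0.10, adjusted p = 0.041) and -0.37 with Dox (SE 0.10, adjusted p = 0.012). With Dox+Auxin this difference was -0.31 (SE 0.10, adjusted p = 0.017). No source used here states whether reads were counted by strand, so reads of Gbx2 and of its partner may be mixed. Foxd3, Otx2 and Pou3f1 also overlap other annotated genes, none of which had more than 10 counts in a library.

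Fgf5 (chr5:98254184-98277030, plus strand), the secreted growth factor that marks the primed epiblast, had the lowest CPM of the 5 genes in every library. SPOC libraries held 0.726 to 1.03 CPM with Dox+Auxin, 0.754 to 1.73 CPM with Dox and 0.869 to 1.48 CPM untreated. GFP libraries held 0.812 to 1.19 CPM with Dox+Auxin, 0.904 to 1.57 CPM with Dox and 0.822 to 1.03 CPM untreated. All 6 groups overlapped.

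Dox against untreated shows the list with Xist switched on while SPEN is present. Foxd3 and Gbx2 rose and Otx2 and Pou3f1 fell, in both lines. In SPOC cells 4 of the 5 genes were called, against 13.5% of all genes tested (2478 genes, or 4145 with the replicate number as a block). Otx2 averaged 20.6 ± 5.28 CPM in SPOC Dox cells and 34.5 ± 3.55 CPM in SPOC untreated cells (SD, n = 5 each; log2 fold change -0.75, SE 0.19, edgeR adjusted p = 0.0084). Pou3f1 changed by -0.44 (SE 0.09, adjusted p = 0.0010), Gbx2 by 0.38 (SE 0.10, adjusted p = 0.0069) and Foxd3 by 0.29 (SE 0.07, adjusted p = 0.0095), while Fgf5 had 0.21 (SE 0.20, adjusted p = 0.55). Without SPOC untreated replicate 2 the same 4 were called, at -0.73 for Otx2, -0.52 for Pou3f1, 0.40 for Gbx2 and 0.34 for Foxd3.

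GFP cells showed the same directions under Dox. There 4 of the 5 genes were called, against 20.9% of all genes tested. Otx2 averaged 12.7 ± 1.94 CPM in GFP Dox cells and 27.4 ± 3.26 CPM in GFP untreated cells (SD, n = 4 each; log2 fold change -1.10, SE 0.21, edgeR adjusted p = 6.0e-04). Pou3f1 changed by -0.77 (SE 0.10, adjusted p = 9.5e-07), Gbx2 by 0.55 (SE 0.10, adjusted p = 1.7e-04) and Foxd3 by 0.31 (SE 0.08, adjusted p = 0.0072), while Fgf5 had 0.36 (SE 0.21, adjusted p = 0.25). In both lines these 4 genes stayed called when any 1 library was left out. The test of the difference between the lines in this response called none of the 5 genes, against 0.24% of all genes tested, with the highest difference at 0.35 (SE 0.28, adjusted p = 0.84) for Otx2 and 0.33 (SE 0.13, adjusted p = 0.50) for Pou3f1. With the replicate number as a block, Pou3f1 was called for this difference (0.34, SE 0.08, edgeR adjusted p = 0.014).

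Dox+Auxin against Dox adds auxin, and with it SPEN depletion, to Xist induction. Foxd3 fell in both lines and fell further in GFP cells. Foxd3 averaged 37.1 ± 5.78 CPM in SPOC Dox+Auxin cells and 62.1 ± 3.78 CPM in SPOC Dox cells (SD, n = 5 each; log2 fold change -0.75, SE 0.08, edgeR adjusted p = 2.4e-08). It averaged 17.9 ± 1.29 CPM in GFP Dox+Auxin cells and 58.6 ± 2.13 CPM in GFP Dox cells (SD, n = 4 each; log2 fold change -1.71, SE 0.09, adjusted p = 3.8e-14). The difference between the lines was 0.96 log2 (SE 0.12, adjusted p = 1.2e-05), and without SPOC Dox+Auxin replicates 1 and 2 it was 1.11 (SE 0.09, adjusted p = 9.8e-09). Without them the fall in SPOC cells was -0.60 (SE 0.06, adjusted p = 7.2e-08). Directly compared, SPOC Dox+Auxin cells held 1.05 log2 more Foxd3 than GFP Dox+Auxin cells (SE 0.09, adjusted p = 5.7e-09), and 1.19 more without these libraries. The difference between the lines was called for 2 of the 5 genes, Foxd3 and Otx2, against 8.14% of all genes tested.

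Otx2 rose with Dox+Auxin in GFP cells, to 28.97 ± 5.26 CPM against 12.7 ± 1.94 CPM in GFP Dox cells (SD, n = 4 each; log2 fold change 1.182, SE 0.21, edgeR adjusted p = 8.9e-05). SPOC cells averaged 23.1 ± 6.998 CPM with Dox+Auxin and 20.6 ± 5.28 CPM with Dox (SD, n = 5 each; 0.17, SE 0.19, adjusted p = 0.55). Without SPOC Dox+Auxin replicates 1 and 2 the SPOC value was -0.19 (SE 0.18, adjusted p = 0.51), so its direction rests on these libraries. The difference between the lines was -1.02 log2 (SE 0.28, adjusted p = 0.030), and -1.37 (SE 0.25, adjusted p = 0.0020) without them. The call was lost when any 1 of 8 libraries was left out, namely SPOC Dox+Auxin replicate 3, 4 or 5, SPOC Dox replicate 2, GFP Dox+Auxin replicate 1 or 2 or GFP Dox replicate 1 or 4, with adjusted p between 0.0515 and 0.0756. It was also lost with no filter on low counts (adjusted p = 0.063) and in a fit of the compared groups alone (adjusted p = 0.079).

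**Figure D2:**
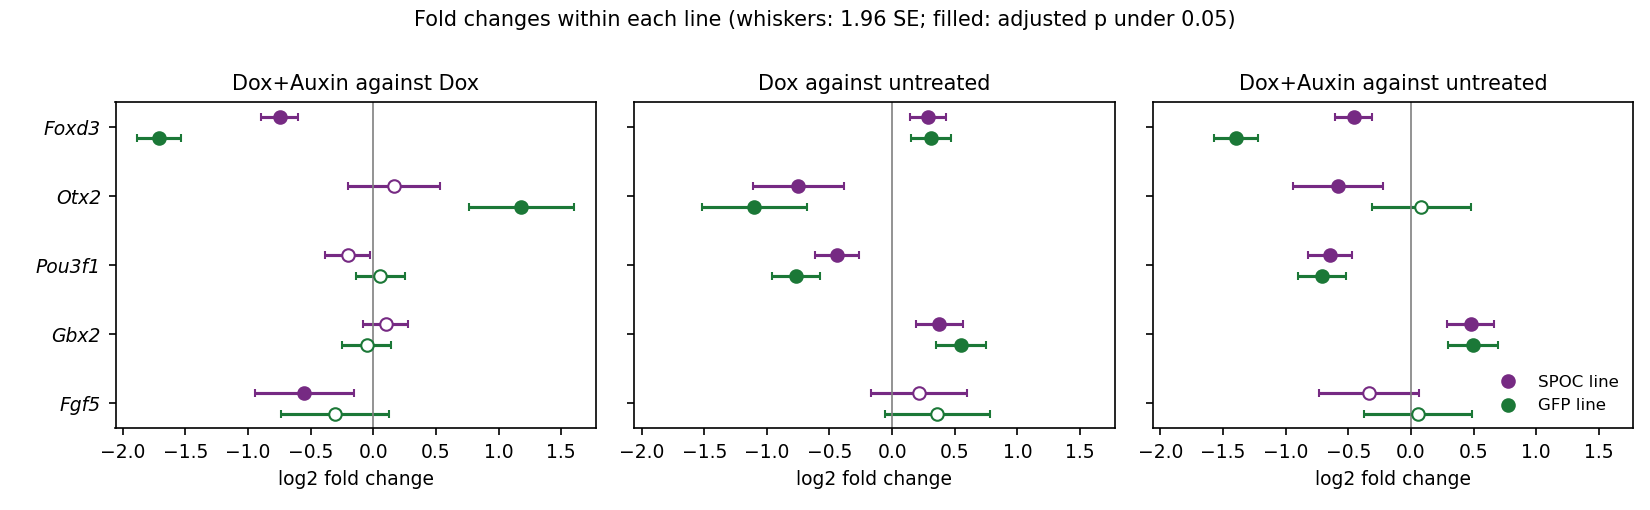
Log2 fold changes of the 5 genes within the SPOC line (purple, upper) and the GFP line (green, lower) for Dox+Auxin against Dox, Dox against untreated and Dox+Auxin against untreated. Points are edgeR estimates, filled where the adjusted p is under 0.05, and whiskers span 1.96 SE; under Dox+Auxin against Dox the lines stand apart for Foxd3 (-0.75 in SPOC and -1.71 in GFP) and for Otx2 (0.17 in SPOC and 1.182 in GFP).

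Pou3f1 and Gbx2 missed the threshold between Dox+Auxin and Dox in both lines. Pou3f1 had -0.21 in SPOC cells (SE 0.09, edgeR adjusted p = 0.087) and 0.06 in GFP cells (SE 0.10, adjusted p = 0.67). It was called in SPOC cells, with adjusted p between 0.0338 and 0.0437, when SPOC untreated replicate 2 or 3 or SPOC Dox+Auxin replicate 3 was left out, and in a fit of the compared groups alone (adjusted p = 0.038). With the replicate number as a block it was also called in SPOC cells (-0.21, SE 0.05, edgeR adjusted p = 0.0019). That fit also called its difference between the lines (-0.27, SE 0.08, adjusted p = 0.017). Gbx2 had 0.10 in SPOC cells (SE 0.09, adjusted p = 0.45) and -0.05 in GFP cells (SE 0.10, adjusted p = 0.70). Without SPOC Dox+Auxin replicates 1 and 2 the SPOC values were -0.18 for Pou3f1 (adjusted p = 0.21), 0.24 for Gbx2 (adjusted p = 0.055) and -0.49 for Fgf5 (adjusted p = 0.14). Fgf5 averaged 0.868 ± 0.130 CPM in SPOC Dox+Auxin cells and 1.28 ± 0.4001 CPM in SPOC Dox cells (SD, n = 5 each; -0.55, SE 0.20, adjusted p = 0.034). This call was lost without SPOC Dox+Auxin replicate 1, 2 or 5 or SPOC Dox replicate 2, 4 or 5, with adjusted p between 0.0515 and 0.135, and in a fit of the compared groups alone (adjusted p = 0.065). In GFP cells Fgf5 had -0.31 (SE 0.22, adjusted p = 0.26). In all, 2 of 5 genes were called in SPOC cells, against 32% of all genes tested, and 2 of 5 in GFP cells, against 47.6%. Both shares lie near their background.

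Dox+Auxin against untreated sets both steps together. Pou3f1 was lower than in untreated cells, at -0.64 log2 in SPOC cells (SE 0.09, edgeR adjusted p = 2.9e-06) and -0.71 in GFP cells (SE 0.10, adjusted p = 1.5e-06). Gbx2 was higher, at 0.48 in SPOC cells (SE 0.09, adjusted p = 2.1e-04) and 0.49 in GFP cells (SE 0.10, adjusted p = 2.8e-04). Foxd3 was lower, at -0.46 in SPOC cells (SE 0.08, adjusted p = 3.5e-05) and -1.40 in GFP cells (SE 0.09, adjusted p = 4.0e-12). Otx2 was lower in SPOC cells, at -0.58 (SE 0.18, adjusted p = 0.017, and 0.053 without SPOC Dox+Auxin replicate 4), while in GFP cells its value was 0.08 (SE 0.20, adjusted p = 0.78). In SPOC cells 4 of 5 genes were called, against 33.3% of all genes tested, and in GFP cells 3 of 5, against 38.2%. Without SPOC Dox+Auxin replicates 1 and 2 the SPOC values were -0.93 for Otx2, -0.62 for Pou3f1, 0.62 for Gbx2 and -0.31 for Foxd3, and without SPOC untreated replicate 2 they were -0.56, -0.72, 0.50 and -0.41 in the same order. The 3 treatment contrasts share libraries, so their values are not independent of one another.

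Between the lines, 1 of 5 genes was called under each treatment. With Dox+Auxin this was Foxd3, against 24.6% of all genes tested. Pou3f1 had -0.24 there (SE 0.10, edgeR adjusted p = 0.064) and was called when SPOC untreated replicate 2 or 3, SPOC Dox+Auxin replicate 1 or 3 or GFP Dox+Auxin replicate 4 was left out. Otx2 had -0.33 (SE 0.19, adjusted p = 0.24) in this comparison, and -0.68 (SE 0.19, adjusted p = 0.011) without SPOC Dox+Auxin replicates 1 and 2. With Dox alone the called gene was Otx2, at 20.6 ± 5.28 CPM in SPOC Dox cells (SD, n = 5) and 12.7 ± 1.94 CPM in GFP Dox cells (SD, n = 4; 0.69, SE 0.21, adjusted p = 0.037), against 10.7% of all genes tested. That call was lost without any 1 of SPOC Dox replicates 1, 2, 4 and 5 and of the 4 GFP Dox libraries, with no filter on low counts and in a fit of the compared groups alone. Gbx2 had -0.26 with Dox (SE 0.10, adjusted p = 0.085) and was called without SPOC Dox replicate 5 (adjusted p = 0.039) or without SPOC Dox+Auxin replicates 1 and 2 together (adjusted p = 0.047). In untreated cells it was Pou3f1, at 28.7 ± 5.29 CPM in SPOC cells (SD, n = 5) and 35.5 ± 1.32 CPM in GFP cells (SD, n = 4; -0.31, SE 0.09, adjusted p = 0.027), against 11.6% of all genes tested. Without SPOC untreated replicate 2 this difference was -0.23 (SE 0.08, adjusted p = 0.065), and the call was also lost without SPOC untreated replicate 4 or 5 or GFP untreated replicate 1 or 2, with no filter on low counts and in a fit of the compared groups alone. That last fit called Otx2 between the untreated lines (0.34, SE 0.09, adjusted p = 0.028), against 0.34 (SE 0.19, adjusted p = 0.27) in the fit of all groups.

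Libraries of one group differed from each other along a shared line. After group means were taken off, Foxd3 and Gbx2 had a Pearson r of 0.77, Foxd3 and Otx2 -0.76 and Otx2 and Gbx2 -0.71 over the 27 libraries. With SPOC Dox+Auxin replicates 1 and 2 left out these were 0.63, -0.60 and -0.55 over 25 libraries. Over all 27 libraries and with group means kept, the same pairs had -0.22, -0.41 and -0.70. The remaining 7 pairs lay between -0.57, for Fgf5 and Pou3f1, and 0.45, for Fgf5 and Gbx2, after group means were taken off. SPOC Dox+Auxin replicates 1 and 2 had the lowest Foxd3, the highest Otx2 and the lowest Gbx2 of their group. These are descriptions over libraries that share scaling and groups.

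**Figure D3:**
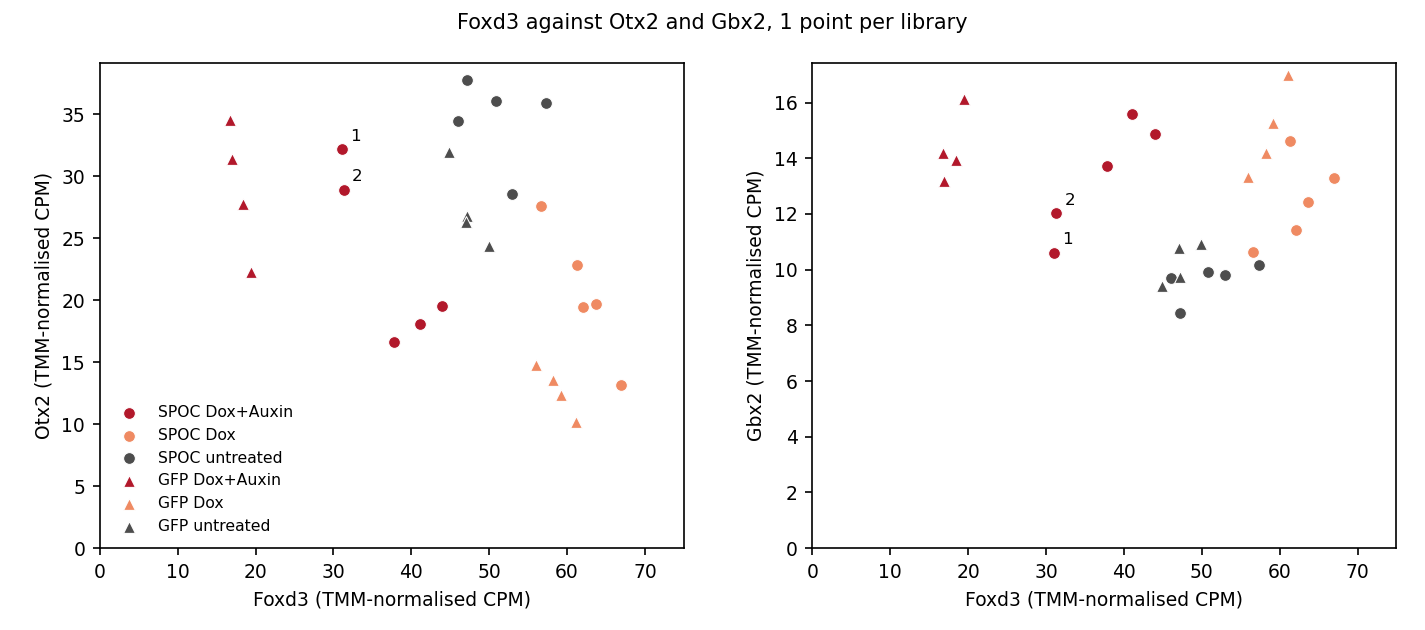
Foxd3 level (horizontal axis) against Otx2 and Gbx2 levels (vertical axes), all in TMM-normalised CPM, with 1 point per library; circles are SPOC and triangles GFP libraries, coloured by treatment. SPOC Dox+Auxin replicates 1 and 2, numbered, lie at 31.1 and 31.3 CPM of Foxd3 and 32.2 and 28.9 CPM of Otx2, apart from the other libraries of that group.

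Among genes that averaged 5 CPM or more, predicted genes (Gm names), Rik names, pseudogenes and unnamed IDs were left out. The genes whose log2 CPM followed each member most closely over the 27 libraries were sought among the 10261 that remained. For Foxd3 these were Cobl (Pearson r 0.99), Mymx (0.97) and Dcbld1 (0.96), and for Otx2 Rundc3b (0.92), Iqcb1 (0.92) and Usp26 (0.91). For Pou3f1 they were Msln (0.94), Otud6a (0.93) and Cited1 (0.92), and for Gbx2 Ntn1 (0.88), Shisa8 (0.85) and Sgcb (0.85). The closest genes to Fgf5 were Pspc1 (0.67), Sdcbp (0.66) and Parvb (0.63). Usp26, Otud6a and Cited1 are on chromosome X. No member was among the 3 closest genes of another, but Fgf5, which averaged under 5 CPM, could not be among them. The names depend on the measure: by Spearman's rho 3 of these 3 genes were shared for Otx2, 1 for Foxd3, Pou3f1 and Gbx2 and 0 for Fgf5, and after group means were taken off 1 was shared for Foxd3 and Fgf5 and 0 for the others. Cobl ranked first for Foxd3 by each.

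Of 21 other formative and primed genes, all passed the filter on low counts. Under Dox+Auxin against Dox 5 rose and 6 fell in SPOC cells, and 7 rose and 7 fell in GFP cells, with medians of 0.062 and 0.049 log2 beside -0.0080 and 0.0038 over all genes. Of all genes tested, 32% were called in SPOC cells and 47.6% in GFP cells in this comparison. Etv1, an ETS factor, fell, at -1.09 log2 in SPOC cells (SE 0.11, edgeR adjusted p = 1.0e-08) and -1.66 in GFP cells (SE 0.13, adjusted p = 9.4e-12). Dnmt3b, a de novo DNA methyltransferase, fell, at -0.77 in SPOC cells (SE 0.05, adjusted p = 1.2e-12) and -1.21 in GFP cells (SE 0.05, adjusted p = 2.6e-16). Sfrp2, a secreted modulator of Wnt signalling, rose by 0.69 in SPOC cells (SE 0.13, adjusted p = 1.2e-04) and by 1.46 in GFP cells (SE 0.14, adjusted p = 3.9e-10). Sox3, an X-linked SOX factor, rose by 0.43 in SPOC cells (SE 0.09, adjusted p = 3.3e-04) and by 1.42 in GFP cells (SE 0.10, adjusted p = 1.3e-12), and Lef1, a nuclear effector of Wnt signalling, fell, at -0.69 in SPOC cells (SE 0.17, adjusted p = 0.0033) and -0.52 in GFP cells (SE 0.18, adjusted p = 0.021). Of the list, 4 rose and 5 fell in SPOC cells without SPOC Dox+Auxin replicates 1 and 2.

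The lines differed in this response for 8 of the 21 genes, against 8.14% of all genes tested, as they did for Foxd3 and Otx2. The difference was positive for Etv1 (0.57, SE 0.17, edgeR adjusted p = 0.035) and Dnmt3b, Zic2 and Zic5, and negative for Sox3 (-0.99, SE 0.13, adjusted p = 2.2e-05), Sfrp2 (-0.77, SE 0.19, adjusted p = 0.010), Cldn6 (-0.52, SE 0.12, adjusted p = 0.0052) and Pim2. Zic2, Zic5, Pim2 and Dnmt3b are named after their values were seen, to complete the count. Sox3 and Pim2 are on chromosome X, while Foxd3, Otx2 and the other 6 are autosomal. Without SPOC Dox+Auxin replicates 1 and 2 the difference was called for 3 genes upward and 3 downward.

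Under Dox against untreated none of the 21 rose and 6 fell in SPOC cells, and 2 rose and 7 fell in GFP cells, with medians of -0.097 and -0.11 log2 beside -0.0012 and -0.00087 over all genes. Of all genes tested, 13.5% were called in SPOC cells and 20.9% in GFP cells here. Sox3 fell, at -1.001 in SPOC cells (SE 0.09, edgeR adjusted p = 3.6e-09) and -1.32 in GFP cells (SE 0.10, adjusted p = 2.5e-11). Fgf15, a secreted FGF, fell, at -0.64 in SPOC cells (SE 0.16, adjusted p = 0.0050) and -0.83 in GFP cells (SE 0.18, adjusted p = 0.0010). Lef1 fell in SPOC cells, at -0.73 (SE 0.16, adjusted p = 0.0036), and Sfrp2 fell in both lines, at -0.40 in SPOC cells (SE 0.13, adjusted p = 0.041) and -0.61 in GFP cells (SE 0.14, adjusted p = 0.0021). Of the genes that fell, 2 in each line were X-linked.

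**Figure D4:**
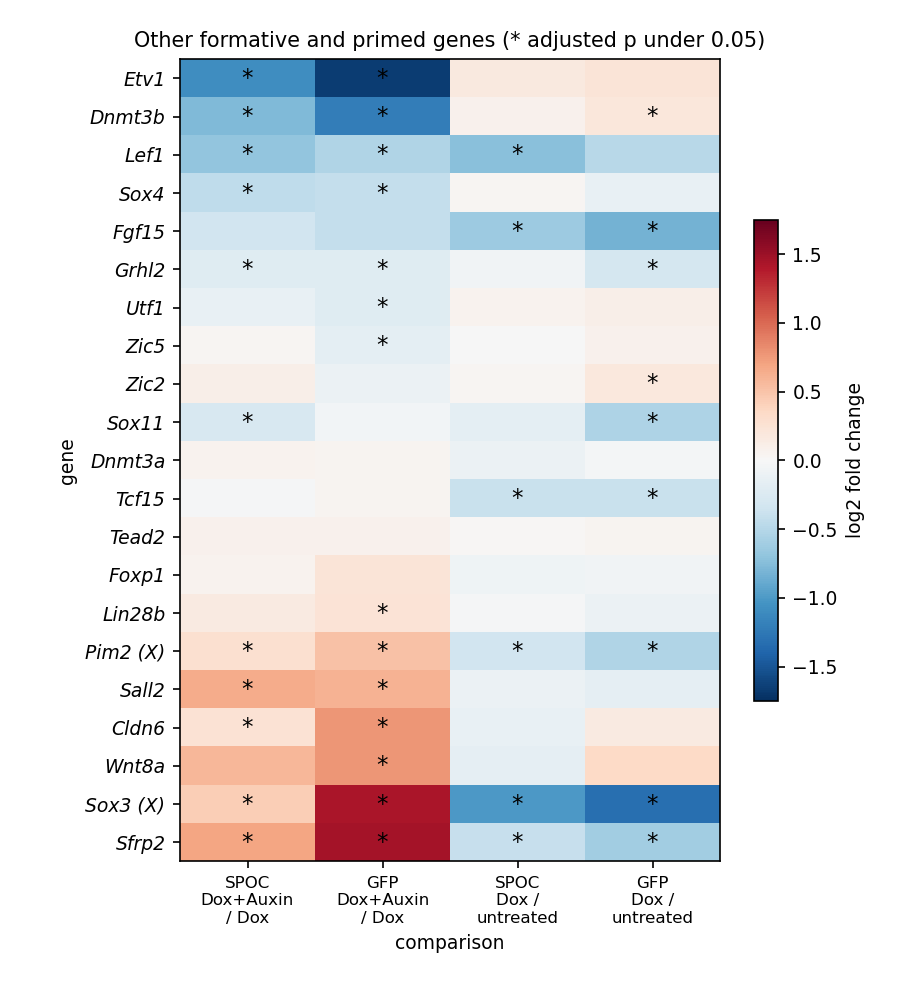
Log2 fold changes of the 21 other formative and primed genes (rows) in 4 comparisons (columns); colour gives the log2 fold change, a star an edgeR adjusted p under 0.05 and X a gene on chromosome X. Etv1 and Dnmt3b lie at the low end and Sfrp2 and Sox3 at the high end for Dox+Auxin against Dox in GFP cells.

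Of 15 naive pluripotency genes 1 rose and 7 fell in SPOC cells, where 32% of all genes tested were called, and 1 rose and 10 fell in GFP cells, where 47.6% were called, under Dox+Auxin against Dox. The SPOC counts were 1 and 4 without SPOC Dox+Auxin replicates 1 and 2. Tet2, a DNA demethylase, fell, at -0.36 in SPOC cells (SE 0.08, edgeR adjusted p = 0.0020) and -0.77 in GFP cells (SE 0.09, adjusted p = 4.3e-07). With Dox+Auxin 10 of the 15 were higher in SPOC than in GFP cells and none lower (9 without those libraries, and 24.6% of all genes called), among them Nr5a2 (0.31, SE 0.04, adjusted p = 2.7e-06). Under Dox against untreated 5 rose and none fell in SPOC cells, where 13.5% of all genes were called, and 5 rose and 1 fell in GFP cells, where 20.9% were called. Of 7 core pluripotency genes 2 rose and 3 fell in SPOC cells, and 2 rose and 4 fell in GFP cells, under Dox+Auxin against Dox, with Pou5f1 at -0.18 in SPOC cells (SE 0.03, adjusted p = 2.2e-05) and -0.29 in GFP cells (SE 0.03, adjusted p = 9.9e-09).

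Lists of signalling genes are read beside the same shares of all genes called under Dox+Auxin against Dox, 32% in SPOC and 47.6% in GFP cells. Of 15 FGF and ERK genes tested out of 16 listed, 3 rose and 7 fell in SPOC cells and 2 rose and 7 fell in GFP cells under Dox+Auxin against Dox. Dusp6, an ERK phosphatase, fell, at -1.48 in SPOC cells (SE 0.12, edgeR adjusted p = 8.4e-11) and -2.24 in GFP cells (SE 0.14, adjusted p = 5.1e-14), and Fgfr2, an FGF receptor, rose by 1.12 in SPOC cells (SE 0.25, adjusted p = 0.0018) and by 1.94 in GFP cells (SE 0.28, adjusted p = 7.1e-06). Under Dox against untreated Dusp6 rose, by 0.53 in SPOC cells (SE 0.11, adjusted p = 0.0012) and by 0.70 in GFP cells (SE 0.12, adjusted p = 4.4e-05). Of 10 Nodal and activin genes 1 rose and 4 fell in SPOC cells, and 3 rose and 5 fell in GFP cells, under Dox+Auxin against Dox, with Inhbb, an activin subunit, at -1.57 in SPOC cells (SE 0.10, adjusted p = 2.5e-13) and -2.60 in GFP cells (SE 0.11, adjusted p = 3.0e-17). Of 8 Wnt and TCF genes tested out of 9 listed, 5 rose and 1 fell in SPOC cells and 5 rose and 2 fell in GFP cells, and of 9 LIF and STAT3 genes 1 rose and 4 fell in each line. With SPOC Dox+Auxin replicates 1 and 2 left out, the SPOC counts higher and lower were 3 and 7 for FGF and ERK, 0 and 2 for Nodal and activin, 4 and 0 for Wnt and TCF and 1 and 1 for LIF and STAT3. No list was tested as a group.

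Counts of called markers of other cell types under Dox+Auxin against Dox also stand beside 32% of all genes called in SPOC and 47.6% in GFP cells. The 7 neural markers summed to 203 to 269 CPM in SPOC Dox+Auxin, 138 to 176 in SPOC Dox and 143 to 186 CPM in SPOC untreated libraries. Their sum was 225 to 240 CPM in GFP Dox+Auxin, 153 to 175 in GFP Dox and 136 to 149 CPM in GFP untreated libraries. Of the 6 neural genes tested, 3 rose and 1 fell in SPOC cells and 2 rose and 1 fell in GFP cells. Nes, an intermediate filament gene, rose by 1.12 in SPOC cells (SE 0.06, edgeR adjusted p = 1.6e-14) and by 1.33 in GFP cells (SE 0.06, adjusted p = 9.2e-16), while Sox1, a defining neural factor, fell. Pax6, another neural factor, rose by 2.22 in GFP cells (SE 0.29, adjusted p = 1.7e-07), where Sox1 had -1.17 (SE 0.15, adjusted p = 1.7e-07). Neurog2, Pax3 and Hes5 had at most 20 counts in a library. Most of the neural sum was Nes (47.7 to 134 CPM over all libraries) and Tubb3 (76.2 to 136 CPM). Pax6 and Sox1 had at most 2.43 and 3.54 CPM. The 7 trophoblast markers summed to 99.7 to 164 CPM in SPOC Dox+Auxin and 70.7 to 108 CPM in SPOC Dox libraries, and to 161 to 171 CPM in GFP Dox+Auxin and 81.3 to 84.8 CPM in GFP Dox libraries, with 2 of 6 tested genes higher in each line, 2 lower in SPOC and 1 lower in GFP cells, and with Elf5 and Hand1 at 14 counts or fewer. Tfap2c, at 39.3 to 134 CPM over all libraries, was the largest part of the trophoblast sum, while Cdx2 had at most 24.5 CPM. The 8 mesoderm and endoderm markers summed to 28.7 to 38.3 CPM in SPOC Dox+Auxin and 26.8 to 32.7 CPM in SPOC Dox libraries, and to 35.2 to 40.2 CPM in GFP Dox+Auxin and 25.6 to 27.2 CPM in GFP Dox libraries, where 1 of 6 tested rose in SPOC and 4 of 6 in GFP cells. The 6 neural crest markers, relevant because Foxd3 also marks the neural crest, summed to 15.3 to 18.9 CPM in SPOC Dox+Auxin and 19.1 to 22.9 CPM in SPOC Dox libraries, and to 18.5 to 21.8 CPM in GFP Dox+Auxin and 18.3 to 19.8 CPM in GFP Dox libraries, with Sox10 and Tfap2b at 12 counts or fewer. Of the 5 tested 1 fell in SPOC cells, Tfap2a (-0.60, SE 0.14, adjusted p = 0.0010), while in GFP cells Tfap2a fell (-0.98, SE 0.15, adjusted p = 3.9e-06) and Ets1 (0.46, SE 0.13, adjusted p = 0.0047) and Twist1 (0.34, SE 0.11, adjusted p = 0.013) rose. Primitive endoderm genes (7 tested) had 2 higher and 1 lower in SPOC and 1 higher and 2 lower in GFP cells, and fibroblast feeder genes (4 of 8 tested) 1 lower in SPOC and 3 lower in GFP cells. The SPOC counts without SPOC Dox+Auxin replicates 1 and 2 were 2 higher and 1 lower for neural and 1 higher and 1 lower for primitive endoderm genes, and the same as with them for the other cell types. The part of these cells in the changes of Foxd3 and Otx2 was not tested.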

How the data were processed

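RNA was extracted with RNeasy kits and sequenced as paired ends on a HiSeq2500 from TruSeq libraries, per the labels' protocols. The deposited table holds raw counts per gene, not split by allele, which the authors made on mm10. Tools listed without role or order, per the submitters' processing notes, were featureCounts, DESeq2 1.18.1, STAR 2.5.3a, Trim Galore 0.4.4 and Picard 2.18.2. No source used here gives the strand setting or the annotation. The deposited RPKM values of the authors ran 33.8 to 35.2 times CPM per kb computed from the counts and were not used for results. A further 54 allele-specific columns were not analysed here. The series' description states 4 biological replicates, while the SPOC groups have 5 libraries each. Nothing says that the SPOC libraries all came from separate cultures, so p-values measure the spread between libraries.

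Raw counts were fitted with edgeR 4.0.16 in R 4.3.3 (TMM, filterByExpr, robust quasi-likelihood test, 1 mean per group over 27 libraries), which left 18363 genes. Adjusted p is Benjamini-Hochberg over all of them in each of 11 comparisons, with 0.05 as threshold. SE is the size of the log2 fold change over the square root of F. The steps were tested on simulated data. IDs were named with GENCODE M21, which matched 53706 of 53801.

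The members and lists were chosen with earlier results of these data known. All 5 members are named in every comparison, and of other lists at most the 4 called genes with the largest change per comparison; 2 listed genes are not reported here. Same-numbered libraries deviated together, with every correlation over 0.1, for SPOC Dox and untreated (0.131 to 0.525), SPOC Dox+Auxin and untreated (0.144 to 0.419) and GFP Dox+Auxin and untreated (0.245 to 0.447), so the numbers may mark pairs there. The reported fit held no replicate block and did not use this pairing. Values with the block are given only where the block is named.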

Additional observations from a re-analysis of the deposited data

Results flagged for a closer look

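Gbx2 in SPOC untreated replicate 1 stood at 8.44 CPM, below the nearest library of its group at 9.69 CPM, by more of the group's range than Dixon's test allows. Of 30 groups examined, 1 was flagged, and chance flags about 1 in 20.

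The response to Dox+Auxin against Dox differed between the lines by edgeR's test of the difference itself (SPOC minus GFP, log2) for Foxd3 (0.96) and Otx2 (-1.02). Among the other formative genes it differed for Sox3 (-0.99), Sfrp2 (-0.77), Cldn6 (-0.52), Pim2 (-0.23), Etv1 (0.57), Dnmt3b (0.44), Zic2 (0.21) and Zic5 (0.21).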

How the results depend on the processing

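Of the values for the 5 genes under every alternative, 1749 kept direction and side of the threshold, 36 lost a call, 19 gained one and 11 changed sign, and of the counts 672 stayed within 1.5 times and 54 did not. The cause of each change was not tested. With DESeq2's Wald test 2 genes were called between the lines with Dox+Auxin, and 91 genes overall for the difference in Dox against untreated. With no filter on low counts 0 of the 5 were called between the lines untreated, 0 with Dox, and 1 for the difference in Dox+Auxin against Dox. Fitting the compared groups alone called 0 of the 5 between the lines with Dox and 1 for that difference. With the replicate block, the counts over all genes were 4145 for SPOC Dox against untreated, 4093 between the lines untreated, 3756 with Dox, 3317 for the difference in Dox+Auxin against Dox and 294 for that in Dox against untreated. Of the 5, the block called 2 between the lines with Dox (Gbx2 joining), 2 with Dox+Auxin (Pou3f1 joining), 1 (Pou3f1) for the difference in Dox against untreated, and also Pou3f1 in SPOC Dox+Auxin against Dox (-0.21, adjusted p = 0.0019) and in the difference in Dox+Auxin against Dox (-0.27, adjusted p = 0.017), and it changed no call of the 5 in the 3 comparisons whose numbers pair; in 22 of 27 library pairs the match was best for the shared number. Without SPOC Dox+Auxin replicates 1 and 2, chosen after seeing the data, 1 of the 5 was called in SPOC Dox+Auxin against Dox, 2 between the lines with Dox and 2 with Dox+Auxin, and the sign turned for Otx2 (-0.19, SPOC Dox+Auxin against Dox) and Gbx2 (0.036, between the lines with Dox+Auxin). Leaving out 1 library gave 1 to 3 of the 5 for SPOC Dox+Auxin against Dox, 0 to 1 between the lines untreated and with Dox, 1 to 2 with Dox+Auxin and 1 to 2 for the difference in Dox+Auxin against Dox. Over all genes it gave 1035 to 2299 between the lines untreated and 1260 to 2087 with Dox. No called value changed sign when 1 library was left out; uncalled ranges that crossed 0 were -0.057 to 0.027 for Foxd3 in the difference in Dox against untreated, -0.0094 to 0.043 for Pou3f1 and -0.042 to 0.24 for Fgf5 between the lines with Dox, -0.11 to 0.015 for Gbx2 in GFP Dox+Auxin against Dox, and -0.015 to 0.19 for Otx2 and -0.063 to 0.13 for Fgf5 in GFP Dox+Auxin against untreated. Fgf5 had 24 to 57 counts a library.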
